A study of Homo sapiens with 6 samples.

Results

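Fibroblast growth factors (FGFs) and their receptors were examined in HFL-1 cells, an established line of fibroblasts from human fetal lung, after knockdown of the transcriptional coactivator TAZ. The genes were chosen by symbol from the deposited count table: the 6 ligand genes FGF1, FGF2, FGF5, FGF7, FGF10 and FGF18 and the 4 receptor genes FGFR1, FGFR2, FGFR3 and FGFR4, which are 10 of its 23355 entries with a gene symbol. The cells had received a control siRNA without a target (siNTC) or one of 2 siRNAs against TAZ (siTAZ #1 and siTAZ #2), and total RNA was taken 48 h later. Each group had 2 biological replicates, 6 libraries in all, sequenced on an Ion Proton. All groups were transfected with Lipofectamine RNAiMAX and came from a single cell line, so the spread between replicates is that between transfected cultures and not between donors.

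Most FGFs are secreted proteins that bind heparan sulfate on cell surfaces and in the matrix, and together with it they bring 2 receptor tyrosine kinases together. The activated receptor signals through the adaptor FRS2 and the RAS-ERK kinase chain, which turns on transcription factors of the ETS family as well as the inhibitors Sprouty and DUSP that damp the same chain. In the lung, FGF7 and FGF10 are signals from the mesenchyme to the epithelium, which receives them through an epithelial splice form of FGFR2, whereas fibroblasts are known for FGFR1 and for FGF2, a mitogen that they make and respond to. TAZ itself has no DNA-binding domain and acts on genes through TEAD factors, which often bind near AP-1 sites.

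FGF7 has copies of most of its transcript elsewhere in the genome, some of which are counted in the same table, so part of their sequence is shown first. The FGF7 gene lies on chromosome 15 of GRCh37, from 49715434 to 49780972 on the plus strand, and its main transcript has 4 exons. Its last exon, 4466 of the 5321 bases of that transcript, is repeated 8 times on chromosomes 9, 18 and 21 at 96.1% to 96.8% identity, and exon 3 (104 bases) is repeated at 96.2% to 97.1%, while exons 1 and 2 had no match of 90 bases or more elsewhere. The deposited table counts 2 of these copies as genes of their own, KGFLP1 and KGFLP2. In GENCODE the exons of these 2 genes hold only 293 and 303 bases, although the gene models behind the counts may differ. The first 192 bases of exon 4, which code for protein in FGF7, are printed from GRCh37 for FGF7 at chr15:49776507-49776698, for KGFLP1 at chr9:46745368-46745559 (plus strand) and for KGFLP2 at chr9:41962556-41962747 (minus strand). Capitals in the first line mark the bases at which either copy differs from FGF7, and capitals in the other lines mark the bases at which that copy does.
FGF7: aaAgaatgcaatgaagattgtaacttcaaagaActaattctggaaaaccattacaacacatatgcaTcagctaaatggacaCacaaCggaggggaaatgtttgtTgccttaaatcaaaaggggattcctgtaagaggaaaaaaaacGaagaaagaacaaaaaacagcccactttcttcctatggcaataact
KGFLP1: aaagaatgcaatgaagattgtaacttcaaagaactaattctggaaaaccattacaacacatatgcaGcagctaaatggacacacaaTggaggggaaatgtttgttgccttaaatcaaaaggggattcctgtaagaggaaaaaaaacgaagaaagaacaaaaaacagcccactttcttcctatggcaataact
KGFLP2: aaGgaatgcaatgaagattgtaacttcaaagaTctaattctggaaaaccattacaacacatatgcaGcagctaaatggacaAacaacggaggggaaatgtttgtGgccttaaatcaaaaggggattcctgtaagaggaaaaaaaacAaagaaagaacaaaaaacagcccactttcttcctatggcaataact
In this stretch KGFLP1 differs from FGF7 at 2 bases and KGFLP2 at 6. Over the whole of the aligned exon, 96.8% of bases were identical for KGFLP1 and 96.5% for KGFLP2, the longest identical run was 258 bases for KGFLP1 and 141 for KGFLP2, and 11.2% and 4.19% of 100-base windows held no difference at all. A read from such a window cannot be assigned to one gene.

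Since TAZ acts through TEAD factors, the promoters available for the 10 genes were searched for the TEAD core CATTCC and for the AP-1 site TGANTCA on both strands. The search took the 250 bases before each start site that RefSeq gives (table of GRCh38.p14, with each sequence found once in GRCh37). Of all 35116 such promoters, 11.9% held the TEAD core and 6.57% the AP-1 site. The table had 18 promoters of 9 of the 10 genes. It had none of FGFR1, which was thus not searched. Of the 18, 3 held a TEAD core: 1 of FGF1 and 2 of FGFR2. The promoter of FGF1 below (GRCh37 chr5:142023805-142024054, minus strand) had 2 TEAD cores, 236 to 231 and 189 to 184 bases before the start, and was the only one of the 18 with an AP-1 site, 41 to 35 bases before it. It is an inner promoter, 53831 bases into the gene as GENCODE draws it. The promoters of FGF5 (GRCh37 chr4:81187492-81187741, plus strand) and FGF7 (GRCh37 chr15:49715189-49715438, plus strand), the ligands whose levels changed, are shown for comparison and held neither motif. Capitals mark the motif matches.
FGF1: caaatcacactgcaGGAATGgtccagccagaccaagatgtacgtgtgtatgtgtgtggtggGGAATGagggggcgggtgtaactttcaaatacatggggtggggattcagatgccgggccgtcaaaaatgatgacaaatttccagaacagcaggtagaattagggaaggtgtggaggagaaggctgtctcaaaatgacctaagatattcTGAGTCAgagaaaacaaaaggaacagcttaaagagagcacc
FGF5: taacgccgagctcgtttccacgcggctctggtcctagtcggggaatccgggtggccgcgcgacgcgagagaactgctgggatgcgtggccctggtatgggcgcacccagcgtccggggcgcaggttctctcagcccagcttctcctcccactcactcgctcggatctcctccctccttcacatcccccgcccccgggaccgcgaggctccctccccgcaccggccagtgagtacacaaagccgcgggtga
FGF7: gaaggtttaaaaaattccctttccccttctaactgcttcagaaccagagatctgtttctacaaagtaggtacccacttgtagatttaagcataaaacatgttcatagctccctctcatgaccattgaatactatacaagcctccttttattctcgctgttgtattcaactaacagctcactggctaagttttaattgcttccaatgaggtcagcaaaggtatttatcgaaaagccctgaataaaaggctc
A match of these letters is a description and not a binding site, and its absence from 250 bases says nothing of sites farther away.

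The gene of TAZ, which the table lists as WWTR1, was measured first as the check of the knockdown. Levels are given as CPM, read counts scaled to a common library size with TMM, edgeR's trimmed mean normalization. WWTR1 was at 132 and 131 CPM in the siNTC libraries, at 26.4 and 28.4 CPM with siTAZ #1, and at 46.1 and 43.1 CPM with siTAZ #2. All 4 siTAZ libraries lay below both controls, with log2 fold changes of -2.26 (SE 0.10, FDR 0.00062) and -1.56 (SE 0.10, FDR 0.00068), and the loss was larger with siTAZ #1 (log2 difference -0.70, SE 0.10, FDR 0.005). FDR is the Benjamini-Hochberg adjusted p of edgeR's quasi-likelihood test over the 14053 genes tested, SE is the standard error of a log2 fold change, and a gene is called at an FDR under 0.05.

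The libraries held 15648055 to 32078188 counts. One stood apart: in siTAZ #1 replicate 2, the deepest library, counts were nearly missing from RANGAP1 on chromosome 22 through X and Y, where 455 of the 475 genes averaging 50 counts or more were more than 4-fold below replicate 1. None of the 10 FGF genes lies there, but 3 tested genes of the lists described further on do (GPC4, KAL1 and SPRY3), and the loss widened the spread that the fit shares between genes (common dispersion 0.0807, against 0.0164 without those genes). All 10 of a list of fibroblast markers were measured, and 3 rose (PDGFRA, PDGFRB and FBN1) and 4 fell (COL1A1, COL1A2, DCN and LUM) with siTAZ #1, while 2 rose (PDGFRB and THY1) and 6 fell with siTAZ #2. Their summed level, most of it from COL1A1, COL1A2, COL3A1 and VIM, was 35346 and 35439 CPM with siNTC, 24891 and 23908 CPM with siTAZ #1, and 27425 and 29201 CPM with siTAZ #2. Of 10 epithelial markers, 8 were under 1 CPM in all libraries, among them CDH1, ESRP1 and ESRP2, and the list summed to between 4.19 and 6.36 CPM. PECAM1, CDH5 and KDR of 5 endothelial markers and PTPRC, LYZ, CD3E and CD14 of 5 leukocyte markers were also under 1 CPM throughout. The endothelial list summed to 42.1 to 47.3 CPM with siNTC and siTAZ #1 and to 26.1 and 31.3 CPM with siTAZ #2, nearly all of it TEK. The leukocyte list, nearly all of it CD68, summed to 69.2 to 75.8 CPM and, with siTAZ #2, to 38.2 and 49 CPM. Of 4 mesothelial markers, MSLN and WT1 were under 1 CPM in all libraries. The list summed to 6.97 to 9.89 CPM with siNTC and siTAZ #1 and to 13.9 and 14.9 CPM with siTAZ #2. Most of it was CALB2, which rose with siTAZ #2 to 11.6 and 12.7 CPM from 6.4 and 4.1 CPM with siNTC. UPK3B was lower with siTAZ #2, at 2.1 and 1.69 CPM against 2.92 and 2.65 CPM, and was not called. The part of these shifts in the FGF results was not tested. In RNA from whole cultures, fewer cells of a kind and less RNA per cell cannot be told apart.

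FGF ligands and receptors changed in different ways with the 2 siRNAs (shown in the plot of CPM by library). FGF5 rose with siTAZ #1 and fell with siTAZ #2, FGFR1 rose with siTAZ #1, and FGF7 rose with siTAZ #2. No gene of the 10 was called in the same direction with both siRNAs, where 5.49% of all genes tested rose with both and 3.74% fell with both, and FGF5 was called in opposite directions, as were 1.52% of all genes. Of the 10, 8 passed the filter on low counts, 5 ligands and 3 receptors, and FGF10 and FGFR2 did not. Of the 8, 2 were called with siTAZ #1 (FGF5 and FGFR1), where 20.6% of all genes tested were called, and 2 with siTAZ #2 (FGF5 and FGF7), where 28.5% were. In the direct comparison of the siRNAs, 2 of 8 were called (FGF5 and FGFR1), against 28.6% of all genes. The share of called FGF genes was thus near that of all genes. The libraries did not overlap between groups for 5 of the 8 genes with siTAZ #1, for 6 with siTAZ #2 and for 5 between the siRNAs, where this held for 64.3%, 71.4% and 65.6% of all genes tested. An exact permutation test of 2 against 2 libraries cannot give a two-sided p below 0.333, so single genes were tested only in the fit across all genes. Both siRNAs were compared with the same siNTC libraries, so that the chance level of these 2 controls enters both comparisons.

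**Figure D1:**
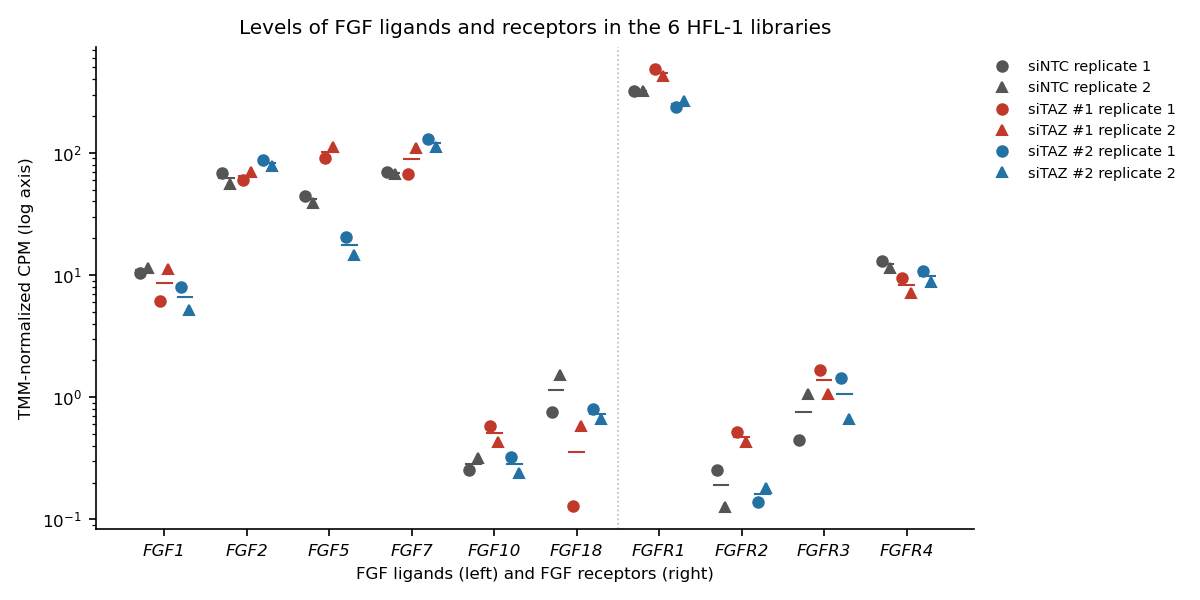
TMM-normalized CPM on a log axis (y) of the 10 FGF ligand and receptor genes (x) in each of the 6 libraries, with circles for replicate 1, triangles for replicate 2 and short lines for group means. FGF5 lies above siNTC with siTAZ #1 (90.9 and 111 CPM) and below it with siTAZ #2 (20.3 and 14.7 CPM), and FGF10 and FGFR2 lie under 1 CPM in every library.

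FGF5, a ligand known for ending the growth phase of hair follicles and as a mitogen of fibroblasts, differed most. It was at 44.3 and 38.9 CPM with siNTC, at 90.9 and 111 CPM with siTAZ #1, and at 20.3 and 14.7 CPM with siTAZ #2. The 3 groups did not overlap. FGF5 was 2.43-fold higher with siTAZ #1 (log2 fold change 1.28, SE 0.20, FDR 0.0092) and 2.37-fold lower with siTAZ #2 (log2 fold change -1.25, SE 0.20, FDR 0.0074). Between the siRNAs it differed 5.77-fold (log2 difference 2.53, SE 0.20, FDR 0.0011), and by the size of this difference it ranked 147 among the 14053 genes tested. Being called higher with siTAZ #1 and lower with siTAZ #2 was rare, at 116 genes or 0.825% of those tested. Leaving out siNTC replicate 1 (FDR 0.072) or siNTC replicate 2 (FDR 0.089) ended the call of FGF5 with siTAZ #1, and leaving out siNTC replicate 1 that with siTAZ #2 (FDR 0.057), whereas the difference between the siRNAs was called in all 18 alternatives, from 2.33 to 2.78. Without siTAZ #1 replicate 2, the rise with siTAZ #1 was 1.13 (FDR 5.4e-05). FGF5 lies on chromosome 4 from 81187793 to 81257834 and shares 136 exonic bases with CFAP299 (C4orf22 in the table) on the same strand, which was at 0.121 to 0.429 CPM.

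The genes whose levels over the 6 libraries followed FGF5 most closely were CLDN11, PRR16 and NRAS, by the Euclidean distance between profiles of log2 CPM centred on their means. CLDN11, the gene of a tight junction claudin, was at a distance of 0.45, with means of 129, 296 and 42.2 CPM in siNTC, siTAZ #1 and siTAZ #2. PRR16 had means of 45.8, 100 and 18.2 CPM at a distance of 0.51. NRAS, a RAS GTPase of the chain downstream of FGF receptors, had means of 125, 216 and 46.9 CPM at a distance of 0.56. These are descriptions over 6 libraries in 3 groups, from all genes tested.

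FGF7, also called keratinocyte growth factor, is made by mesenchymal cells and acts on epithelium. It was at 69.2 and 67.3 CPM with siNTC, at 67.1 and 110 CPM with siTAZ #1, and at 130 and 112 CPM with siTAZ #2. Replicate 1 of siTAZ #1 was thus at the control level and replicate 2, the library with the near-missing region, close to siTAZ #2. FGF7 was 1.78-fold higher with siTAZ #2 (log2 fold change 0.83, SE 0.23, FDR 0.045). The call was lost when any one of the 4 libraries of that comparison was left out (log2 fold change 0.71 to 0.91). FGF7 stayed called without the genes of the near-missing region (FDR 0.0015), in DESeq2 (FDR 9.5e-05) and in a fit of those 4 libraries alone (FDR 3.7e-06). Of 18 alternatives, 13 kept the call and 5 lost it. With siTAZ #1 the log2 fold change was 0.38 (SE 0.23, FDR 0.30), and it rested on 1 library, at 0.69 (FDR 0.00022) without siTAZ #1 replicate 1 and at -0.02 (FDR 0.93) without siTAZ #1 replicate 2. The difference between the siRNAs was -0.45 (SE 0.23, FDR 0.21), and without siTAZ #1 replicate 2 it was -0.85 (FDR 6.7e-05).

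The copies of FGF7 shown at the start moved with it (shown in the plot of FGF7 and its copies). KGFLP1 was at 7.86 and 5.62 CPM with siNTC, at 6.77 and 18.2 CPM with siTAZ #1 and at 21.7 and 14.7 CPM with siTAZ #2. KGFLP2 was at 6.02 and 7.38 CPM, 7.03 and 17.9 CPM, and 23.7 and 16.6 CPM. In both, as in FGF7, replicate 1 of siTAZ #1 was near the controls and the other 3 siTAZ libraries were higher. The copies took 16.7% and 16.2% of the counts of the 3 genes with siNTC, 17.1% and 24.6% with siTAZ #1, and 25.8% and 21.8% with siTAZ #2. KGFLP2 was called with siTAZ #2 (log2 fold change 1.59, SE 0.46, FDR 0.049), and KGFLP1 was not (1.43, SE 0.50, FDR 0.080). With the counts of the 3 genes summed, an alternative chosen after seeing the data, the log2 change of the sum was 0.97 (SE 0.27, FDR 0.046) for siTAZ #2, and for siTAZ #1 it was 0.48 (SE 0.27, FDR 0.27). How the counting treated reads that match several copies is not given in the sources used here, so the level of FGF7 alone is uncertain.

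**Figure D2:**
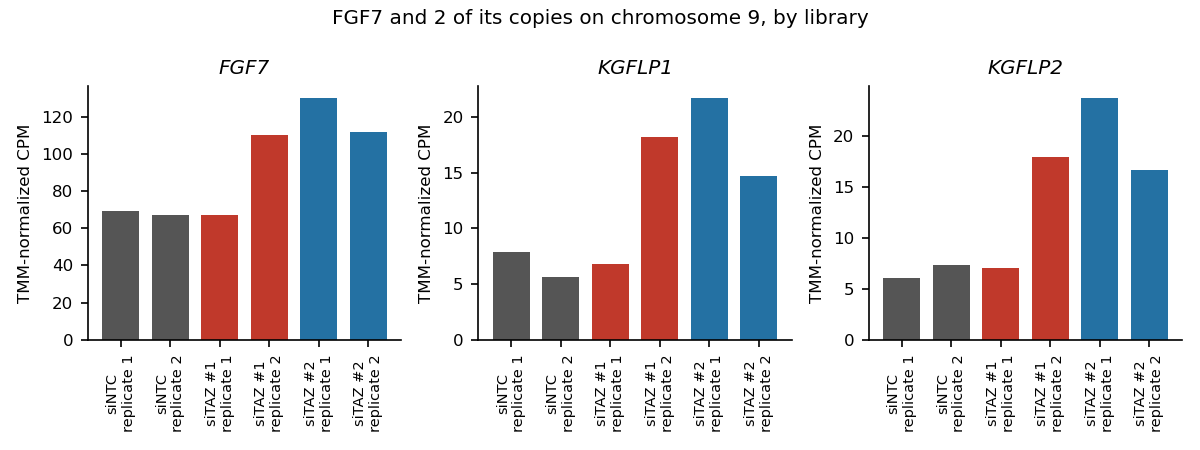
TMM-normalized CPM (y, from 0, with a scale of its own in each panel) of FGF7, KGFLP1 and KGFLP2 in the 6 libraries (x), 1 bar per library. In each panel siTAZ #1 replicate 1 is near the siNTC libraries (FGF7 67.1 against 69.2 and 67.3 CPM) and the other 3 siTAZ libraries are higher.

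FGF2, a mitogen of fibroblasts stored on heparan sulfate, was at 67.9 and 55.7 CPM with siNTC, 60.0 and 69.8 CPM with siTAZ #1, and 87.3 and 78.1 CPM with siTAZ #2. Both siTAZ #2 libraries lay above the other 4. The log2 fold change was 0.42 with siTAZ #2 (SE 0.14, FDR 0.077) and 0.07 with siTAZ #1 (SE 0.14, FDR 0.76). The value with siTAZ #2 was called when the genes of the near-missing region were left out of the fit (FDR 0.022), without either siTAZ #1 library (FDR 0.0089 and 0.0083) and in DESeq2 (FDR 0.024). FGF2 lies on chromosome 4 from 123747837 to 123819391, and 804 of its 6801 exonic bases lie opposite exons of NUDT6, which was at 3.74 to 8.23 CPM. Whether reads were counted by strand is not given in the sources used here.

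FGF1, which binds all FGF receptors, was at 10.4 and 11.4 CPM with siNTC, 6.13 and 11.2 CPM with siTAZ #1, and 7.99 and 5.19 CPM with siTAZ #2. Both siTAZ #2 libraries lay below siNTC, and those of siTAZ #1 overlapped it. Its log2 fold change was -0.72 with siTAZ #2 (SE 0.36, FDR 0.19) and -0.32 with siTAZ #1 (SE 0.35, FDR 0.56). The 2 siTAZ #1 libraries disagreed, so that without siTAZ #1 replicate 1 the value with siTAZ #1 was 0.04 and without siTAZ #1 replicate 2 it was -0.83 (FDR 0.08). FGF1, the gene whose inner promoter held 2 TEAD cores and an AP-1 site, was thus not called with either siRNA. With siTAZ #2 it was called without either siTAZ #1 library (FDR 0.026 and 0.031).

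FGF18, a ligand of mesenchyme in lung and cartilage, had few counts: 12 and 24 with siNTC, 2 and 19 with siTAZ #1, and 17 and 11 with siTAZ #2. The siTAZ #1 libraries, at 0.129 and 0.583 CPM, lay below both controls, and those of siTAZ #2 overlapped the controls. The log2 fold changes were -1.52 with siTAZ #1 (SE 0.75, FDR 0.21) and -0.63 with siTAZ #2 (SE 0.72, FDR 0.56). With 1 library left out, the first ranged from -0.96 (without siTAZ #1 replicate 1) to -3.07 (without siTAZ #1 replicate 2, resting on 2 counts, FDR 0.098), and was -0.98 without siNTC replicate 2, while the second ranged from -0.07 to -1.06, depending on which siNTC library was left out. SLC24A1, LOC100133985 and PEX5L had the profiles nearest to FGF18, at distances of 0.66, 0.72 and 0.73. Their means in siNTC, siTAZ #1 and siTAZ #2 were 10.8, 4.06 and 6.03 CPM for SLC24A1. LOC100133985 (0.537, 0.17 and 0.425 CPM) and PEX5L (0.98, 0.311 and 0.883 CPM) were near the floor, so their likeness to FGF18 rests on few counts.

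FGF10, the mesenchymal ligand that drives branching of the lung epithelium, was barely detected, with 4 and 5 counts with siNTC, 9 and 14 with siTAZ #1, and 7 and 4 with siTAZ #2. Summed over the libraries of a group, its level was 0.285 CPM with siNTC (exact 95% Poisson interval 0.13 to 0.54), 0.478 CPM with siTAZ #1 (0.303 to 0.717) and 0.29 CPM with siTAZ #2 (0.145 to 0.519). These intervals overlap and cover counting error only, and their overlap does not show that the levels were equal. Both siTAZ #1 libraries (0.581 and 0.429 CPM) lay above those of siNTC (0.254 and 0.316 CPM) and siTAZ #2 (0.327 and 0.242 CPM). Without the filter on low counts, the log2 fold change was 0.77 with siTAZ #1 (SE 0.75, FDR 0.6) and -0.01 with siTAZ #2 (SE 0.80, FDR 1), so a difference was not detectable at this depth.

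Among the receptors, FGFR1, the main FGF receptor of mesenchyme, stood far above the others. It was at 321 and 323 CPM with siNTC, 486 and 422 CPM with siTAZ #1, and 238 and 268 CPM with siTAZ #2. The 3 groups did not overlap. FGFR1 was 1.41-fold higher with siTAZ #1 (log2 fold change 0.50, SE 0.10, FDR 0.024), and with siTAZ #2 its log2 fold change was -0.35 (SE 0.10, FDR 0.055). The siRNAs differed 1.79-fold (log2 difference 0.84, SE 0.10, FDR 0.0034). FGFR1 was no longer called with siTAZ #1 when either siNTC library was left out (FDR 0.16 each) or when edgeR's exact test was run on 4 libraries (FDR 0.41), and it stayed called without siTAZ #1 replicate 2 (0.59, FDR 0.00027). The lower level with siTAZ #2 was called without the genes of the near-missing region (FDR 0.023), without either siTAZ #1 library (FDR 0.0035 and 0.0033) and in DESeq2 (FDR 0.0094). The difference between the siRNAs was lost in the exact test (FDR 0.056). FGFR1 has 138 of its 17201 exonic bases opposite exons of LETM2, which rose with both siRNAs from 1.90 and 1.20 CPM to between 3.88 and 5.36 CPM (log2 fold changes 1.66 and 1.42, FDR 0.020 and 0.024), levels far below those of FGFR1.

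FGFR4, a receptor known mainly from liver and muscle, was second among the receptors, at 13.1 and 11.4 CPM with siNTC, 9.48 and 7.12 CPM with siTAZ #1, and 10.8 and 8.82 CPM with siTAZ #2. All 4 siTAZ libraries lay below both controls. The log2 fold changes, -0.57 (SE 0.23, FDR 0.14) and -0.32 (SE 0.23, FDR 0.34), did not pass the test. FGFR4 with siTAZ #1 was called without siTAZ #1 replicate 1 (-0.79, FDR 0.034), where the library with the near-missing region alone stands for siTAZ #1. FGFR3, a receptor of growing cartilage, was at 0.444 and 1.07 CPM with siNTC, 1.68 and 1.07 CPM with siTAZ #1, and 1.45 and 0.664 CPM with siTAZ #2. Its log2 changes were 0.83 (SE 0.65, FDR 0.41) and 0.49 (SE 0.66, FDR 0.62). Replicates of FGFR3 differed as much as the groups did.

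FGFR2, whose epithelial splice form receives FGF7 and FGF10, had 4 and 2 counts with siNTC, 8 and 14 with siTAZ #1, and 3 and 3 with siTAZ #2. Its level over a group was 0.19 CPM with siNTC (exact 95% Poisson interval 0.0696 to 0.413), 0.457 CPM with siTAZ #1 (0.287 to 0.692) and 0.158 CPM with siTAZ #2 (0.058 to 0.344). Both siTAZ #1 libraries (0.516 and 0.429 CPM) lay above those of siNTC (0.254 and 0.126 CPM) and siTAZ #2 (0.14 and 0.181 CPM). The intervals of siTAZ #1 and of the other groups overlap, which does not show that the levels were equal. Without the filter on low counts siTAZ #1 gave an FDR of 0.44 and siTAZ #2 one of 0.92. The epithelial splicing factors ESRP1 and ESRP2 were under 1 CPM in every library.

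**Figure D3:**
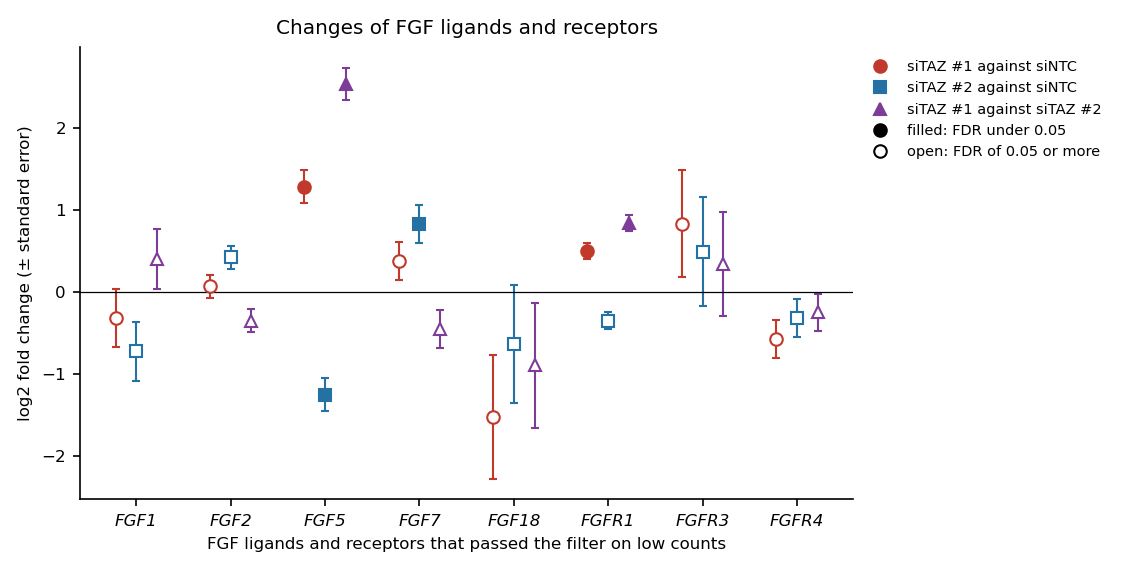
Log2 fold changes (y) with standard errors as bars for the 8 FGF ligand and receptor genes that passed the filter on low counts (x), with siTAZ #1 against siNTC, siTAZ #2 against siNTC and siTAZ #1 against siTAZ #2, and with filled symbols for an FDR under 0.05. FGF5 has filled symbols on opposite sides of 0 with the 2 siRNAs (1.28 and -1.25), and the bars of FGF18 and FGFR3 are the longest.

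To set levels of different genes side by side, CPM was divided by the length of the main transcript in kb, taken from GENCODE, which may not be the gene models behind the counts. In siNTC cells, FGFR1 was highest at 56.5 ± 0.195 CPM per kb (SD, n = 2), followed by FGF7 at 12.8 ± 0.251, FGF2 at 9.29 ± 1.29 and FGF5 at 7.83 ± 0.707 CPM per kb. FGFR4 (3.97 ± 0.389), FGF1 (2.91 ± 0.193), FGF18 (0.569 ± 0.267) and FGFR3 (0.176 ± 0.103) came next, and FGF10 (0.0465 ± 0.00717) and FGFR2 (0.0411 ± 0.0195) were last and overlapped in their libraries. With siTAZ #1, FGF5 came second at 19 ± 2.71 CPM per kb and overlapped FGF7 at 16.7 ± 5.76. With siTAZ #2, FGF5 was at 3.3 ± 0.739 CPM per kb and overlapped FGFR4 at 3.17 ± 0.453, while FGF7 was at 22.8 ± 2.42. FGFR1 was first in each group on this scale. By the length of all annotated exons, FGFR1, which has many transcripts, was at 14.7 ± 1.25 CPM per kb with siTAZ #2 and FGF7 above it at 18.6 ± 1.98.

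Among the receptors, FGFR1 made up 92.8% and 93.4% of the summed level per kb with siNTC, 96% and 96.6% with siTAZ #1, and 91.5% and 93.9% with siTAZ #2. FGFR4 gave most of the remainder, 6.98% and 6.1%, then 3.45% and 3%, then 7.65% and 5.68%. Its share was lower in both siTAZ #1 libraries than in the other 4, and those of FGFR2 and FGFR3 were under 1% in all libraries. By the length of all annotated exons, the share of FGFR4 was 5.64% to 13.7% and that of FGFR3 0.426% to 1.82%, and FGFR1 made up 84.4% to 93.4%.

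Among the ligands, FGF7 made up 37.4% and 39.3% of the summed level per kb with siNTC, 31.1% and 37.4% with siTAZ #1, and 55.6% and 56.4% with siTAZ #2. FGF5 made up 24% and 22.8% in the siNTC libraries, 42.2% and 37.7% in those of siTAZ #1, and 8.68% and 7.43% in those of siTAZ #2. The leading ligand by transcript was thus FGF5 in both siTAZ #1 libraries, if narrowly in replicate 2, and FGF7 in the other 4. This order takes FGF7 without its copies. With KGFLP1 and KGFLP2 summed in, FGF7 was at 80.9 and 146 CPM in the siTAZ #1 libraries, against 90.9 and 111 CPM for FGF5. The main transcripts of FGF7 and FGF5 have 5321 and 5313 bases. FGF2 held 26% to 29.4%, 18.9% to 22.3% and 29.8% to 31.5% in the 3 groups. Shares are of 6 ligands only and of RNA, not protein.

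**Figure D4:**
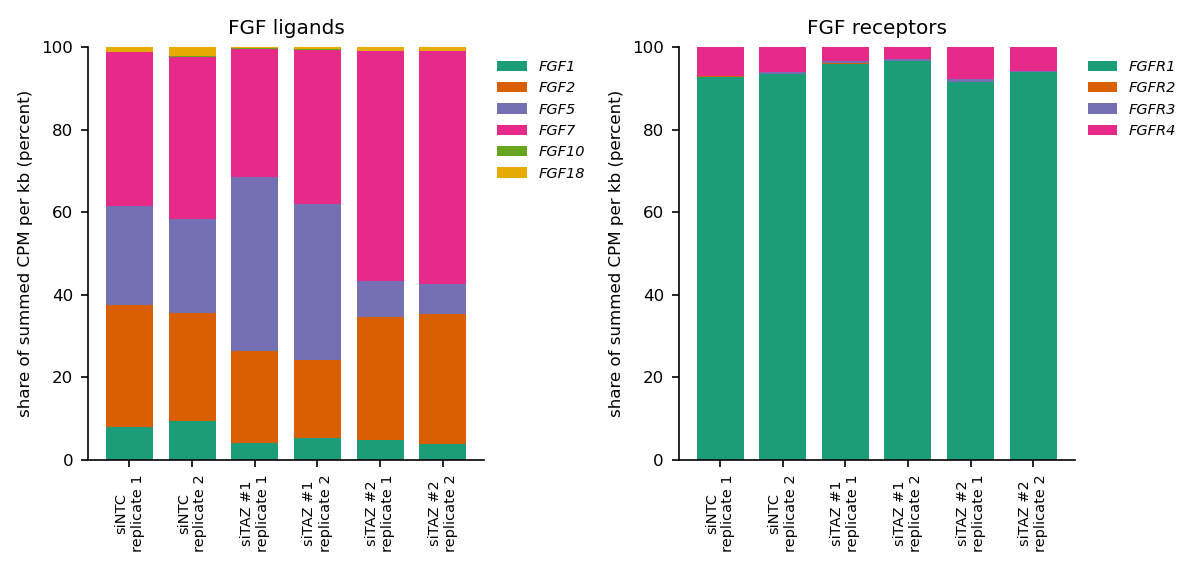
Share (y, percent) of each gene in the summed CPM per kb of main transcript of the 6 FGF ligands (left) and of the 4 FGF receptors (right), 1 bar per library (x). FGF5 takes 42.2% and 37.7% of the ligand sum with siTAZ #1 and 8.68% and 7.43% with siTAZ #2, and FGFR1 takes 91.5% to 96.6% of the receptor sum.

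The genes around these ligands and receptors were described by 7 lists. Of 16 other genes of the FGF family, not all of them ligands, 2 passed the filter, FGF9 and FGF14. Neither was called against siNTC with either siRNA. FGF9, a ligand of the mesothelium and epithelium of the growing lung, was at 0.634 and 0.505 CPM with siNTC, 0.0645 and 0.215 CPM with siTAZ #1, and 1.64 and 1.87 CPM with siTAZ #2. The groups did not overlap. The siRNAs differed (log2 difference -3.43, SE 0.61, FDR 0.011), while the changes against siNTC were -1.82 (FDR 0.11) and 1.61 (FDR 0.077). Its counts were 10 and 8 with siNTC, 1 and 7 with siTAZ #1, and 35 and 31 with siTAZ #2. It passed the filter on low counts through siTAZ #2, where it was highest, so this difference is a description and not independent evidence. The difference between the siRNAs was not called when either siTAZ #2 library was left out. The summed level of the mesothelial markers, most of it CALB2, was also highest in the siTAZ #2 libraries. UPK3B of the same list was lower there than with siNTC. The part of these markers in the level of FGF9 was not tested.

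Feedback inhibitors of FGF-ERK signaling and the transcription factors and early genes that it induces were higher with both siRNAs in their medians (shown in the plot of genes around the FGF pathway). Of 11 feedback inhibitors, all tested, 7 rose and 1 fell with siTAZ #1, and 3 rose and 1 fell with siTAZ #2, with median log2 fold changes of 0.74 and 0.51 against 0.02 and 0.01 over all genes tested. Among all genes tested, 10.8% rose and 9.78% fell with siTAZ #1, and 14.1% rose and 14.4% fell with siTAZ #2. SPRY3 of this list lies in the near-missing region, had 34 and 4 counts with siTAZ #1 and was not called (-1.89 and 1.00, FDR 0.26 and 0.34), and without it the medians were 0.81 and 0.28. DUSP6, the phosphatase of ERK, rose from 30.4 and 26.8 CPM to 111 and 114 CPM with siTAZ #1 (log2 fold change 1.98, FDR 0.00084) and to 62.7 and 70.4 CPM with siTAZ #2 (1.22, FDR 0.0016). SPRY4, a Sprouty inhibitor of the RAS-ERK chain, rose from 30.4 and 31.2 CPM to 123 and 112 CPM (1.93, FDR 0.00084) and to 82.4 and 96.5 CPM (1.54, FDR 0.00092). All 4 siTAZ libraries lay above both controls for DUSP6 and SPRY4, as they did for DUSP4, at 5.01 and 4.80 CPM with siNTC, 28.1 and 28.2 CPM with siTAZ #1 and 11.1 and 15.5 CPM with siTAZ #2 (log2 fold changes 2.52 and 1.43, FDR 0.0018 and 0.0060).

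SPRY1 rose with siTAZ #1, from 5.90 and 9.40 CPM to 30.9 and 28.2 CPM (log2 fold change 1.95, FDR 0.0071), and was at 5.42 and 6.89 CPM with siTAZ #2 (-0.32, FDR 0.43), a difference between the siRNAs of 2.27 (FDR 0.0033). DUSP5 was the one inhibitor that fell with both siRNAs (-1.02 and -0.79, FDR 0.0051 and 0.0075); it was named after its values were seen. The number of inhibitors called with siTAZ #1 was 8 in all, 8 also without siTAZ #1 replicate 2, and 3 without siNTC replicate 1, 5 without siNTC replicate 2 and 5 in the exact test. With siTAZ #2 it was 4 in all, 6 without siTAZ #1 replicate 2 and 2 without siNTC replicate 1.

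Of 10 transcription factors and early genes, 7 rose and none fell with siTAZ #1, and 6 rose and 2 fell with siTAZ #2, with medians of 0.82 and 0.73. ETV1, an ETS factor, rose from 22.5 and 22.3 CPM to 113 and 134 CPM with siTAZ #1 (log2 fold change 2.47, FDR 0.00065) and to 58.6 and 64.7 CPM with siTAZ #2 (1.46, FDR 0.0012). IER3, an immediate early gene, rose from 78.0 and 77.5 CPM to 199 and 230 CPM (1.47, FDR 0.00090) and to 193 and 194 CPM (1.31, FDR 0.00081). EGR1, an immediate early transcription factor, rose by 1.36 (FDR 0.0024) and 1.23 (FDR 0.0023) on the log2 scale. For each of the 3, all siTAZ libraries lay above both controls.

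FOSL1, a component of AP-1, rose with siTAZ #1 (0.40, FDR 0.047) and fell with siTAZ #2 (-0.83, FDR 0.0038). It was at 116 and 130 CPM with siNTC, 156 and 168 CPM with siTAZ #1, and 64.4 and 73.3 CPM with siTAZ #2, an order of groups that FGF5 and FGFR1 also had. MYC fell with siTAZ #2 (-1.43, FDR 0.0040) and was not called with siTAZ #1 (-0.35, FDR 0.22). The number of genes called in this list with siTAZ #1 was 7 in all and also without siTAZ #1 replicate 2, and 3 without siNTC replicate 1, without siNTC replicate 2 or in the exact test. With siTAZ #2 it was 8 in all, and 5 without siNTC replicate 1, without siNTC replicate 2 or without siTAZ #2 replicate 2. Whether the FGF ligands and receptors had a part in these changes was not tested, and other receptors use the same chain.

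**Figure D5:**
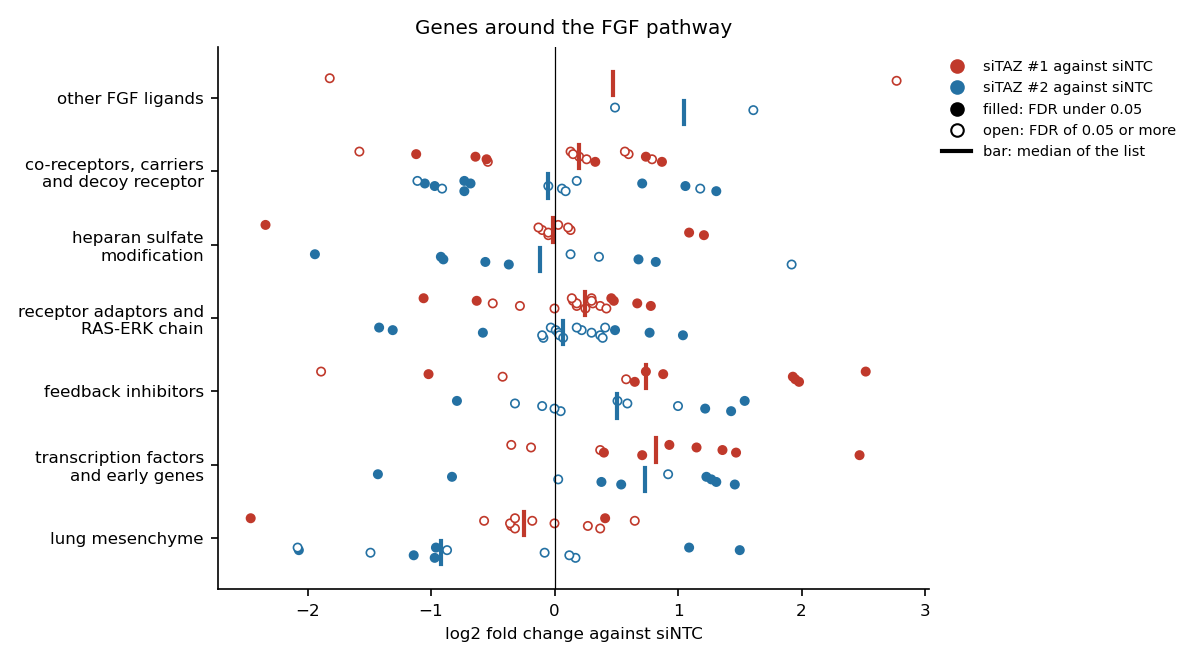
Log2 fold change against siNTC (x) of each tested gene in 7 lists around the FGF pathway (y), with siTAZ #1 in red and siTAZ #2 in blue, filled circles for an FDR under 0.05 and vertical bars for list medians. The medians of the feedback inhibitors (0.74 and 0.51) and of the transcription factors and early genes (0.82 and 0.73) lie to the right of 0, and those of the heparan sulfate list lie near it. The leftmost red feedback inhibitor is SPRY3, and without it the medians of that list were 0.81 and 0.28.

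Between receptor and nucleus were the 19 genes of receptor adaptors and the RAS-ERK chain. Their median was 0.25 with siTAZ #1 (4 rose and 2 fell) and 0.07 with siTAZ #2 (3 rose and 3 fell). Over all genes tested the medians were 0.02 and 0.01. Of all genes tested, 20.6% and 28.5% were called in these comparisons. HRAS, a RAS GTPase, was the only one called in the same direction with both siRNAs (0.67 and 0.77, FDR 0.039 and 0.020). NRAS was at 131 and 120 CPM with siNTC, 210 and 222 CPM with siTAZ #1 and 49.8 and 44.1 CPM with siTAZ #2. It rose with the first (0.78, FDR 0.0051) and fell with the second (-1.42, FDR 0.00076), and the groups did not overlap. MAPK3, the gene of ERK1, went the other way, from 61.6 and 65.8 CPM to 33.2 and 27.8 CPM with siTAZ #1 (-1.06, FDR 0.0045) and to 86.6 and 92.1 CPM with siTAZ #2 (0.49, FDR 0.034). The number called with siTAZ #1, 6 in all, was 5 without siTAZ #1 replicate 2, 11 without siTAZ #1 replicate 1, 2 without siNTC replicate 1, 0 without siNTC replicate 2 and 1 in the exact test. With siTAZ #2, also 6 in all, it was 2 or 3 without any one library of that comparison.

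On the cell surface, 15 of 21 co-receptors, carriers and the decoy receptor were tested. With siTAZ #1, 3 rose and 3 fell, where 20.6% of all genes tested were called, and with siTAZ #2, 3 rose and 5 fell, where 28.5% were, with medians of 0.20 and -0.05. GPC4 and KAL1 lie in the near-missing region, were not called, and without them the medians were 0.26 and -0.05. FGFRL1, a receptor that binds FGFs and lacks a kinase domain, rose with both, from 37.5 and 32.6 CPM to 62.8 and 65.6 CPM with siTAZ #1 (log2 fold change 0.87, FDR 0.0060) and to 84.3 and 89.9 CPM with siTAZ #2 (1.31, FDR 0.0013). The groups did not overlap. SDC3, a syndecan that carries heparan sulfate, fell with both (-0.55 and -1.05, FDR 0.0076 and 0.00092). SDC4, another syndecan, was at 205 and 211 CPM with siNTC, 94.3 and 96.6 CPM with siTAZ #1 and 351 and 327 CPM with siTAZ #2, so that it fell with the first (-1.12, FDR 0.0010) and rose with the second (0.71, FDR 0.0024). FLRT3, a membrane protein that binds FGF receptors, differed between the siRNAs by 1.70 (FDR 0.0076), with changes against siNTC of 0.79 (FDR 0.090) and -0.91 (FDR 0.053). The number called with siTAZ #1, 6 in all and without siTAZ #1 replicate 2, was 3 without siNTC replicate 1, 2 without siNTC replicate 2 and 1 in the exact test.

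Of 13 genes that build or trim heparan sulfate, 10 were tested, of which 2 rose and 1 fell with siTAZ #1, and 2 rose and 5 fell with siTAZ #2, with medians of -0.01 and -0.12. Of all genes tested, 20.6% were called with siTAZ #1 and 28.5% with siTAZ #2, and 14.4% fell with siTAZ #2. SULF1, a sulfatase that acts on heparan sulfate, fell with both siRNAs, from 12.0 and 13.6 CPM with siNTC. It was at 2.32 and 2.73 CPM with siTAZ #1 (log2 fold change -2.34, FDR 0.0024) and 3.46 and 3.20 CPM with siTAZ #2 (-1.94, FDR 0.0026). SULF2, the list's other sulfatase, was named after its values were seen. It was at 1.84 and 0.82 CPM with siNTC and 5.28 and 4.83 CPM with siTAZ #2 (1.92, FDR 0.054). With siTAZ #1 its change was 0.03 (FDR 0.98). SULF1 is on a list of genes lowered by both siRNAs that the study chose on these libraries, so its direction is not independent evidence. GLCE (1.09 and 0.82, FDR 0.0068 and 0.012) and HS2ST1 (1.21 and 0.68, FDR 0.0070 and 0.032), enzymes of the uronic acid residues of the chain, rose with both siRNAs. EXT1, which polymerizes the chain, and HS6ST1, a sulfotransferase, fell with siTAZ #2 (-0.92 and -0.56, FDR 0.0011 and 0.0054) and were not called with siTAZ #1 (0.11 and -0.05, FDR 0.34 and 0.72). With siTAZ #1, 3 genes were called, as without siTAZ #1 replicate 2, and 1 without siNTC replicate 2. With siTAZ #2, 7 were called, 9 without siTAZ #1 replicate 2, and 4, 2, 3 and 3 without siNTC replicate 1, siNTC replicate 2, siTAZ #2 replicate 1 and siTAZ #2 replicate 2.

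Of 12 genes of the lung mesenchyme, where FGF10 is made, all were tested. With siTAZ #1, 1 rose and 1 fell (20.6% of all genes tested were called), and with siTAZ #2, 2 rose and 4 fell (28.5% were called), with medians of -0.25 and -0.91. WNT2, a mesenchymal WNT ligand of lung specification that is also on the study's list from these libraries, fell from 14.3 and 17.5 CPM to 4 and 1.90 CPM with siTAZ #1 (-2.46, FDR 0.011) and to 4.25 and 3.32 CPM with siTAZ #2 (-2.07, FDR 0.013). WNT5A rose with both, from 266 and 280 CPM to 339 and 388 CPM (0.41, FDR 0.039) and to 816 and 730 CPM (1.5, FDR 0.00076). GLI3, a transcription factor of Hedgehog signaling, fell with siTAZ #2 (-1.14, FDR 0.0020) and PTCH1, the Hedgehog receptor, rose (1.09, FDR 0.0064), and neither was called with siTAZ #1 (0.37 and -0.36, FDR 0.072 and 0.18). The number called with siTAZ #1, 2 in all and without siTAZ #1 replicate 2, was 0 without either siNTC library, 5 without siTAZ #1 replicate 1 and 1 without either siTAZ #2 library. With siTAZ #2 it was 6 in all, 8 without siTAZ #1 replicate 2 and 3 without siNTC replicate 1.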

How the data were processed

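Raw counts, 1 value for each gene and library, were deposited. The authors sequenced on an Ion Proton, mapped reads with TMAP against hg19 and used HTSeq 0.6.1 for counting (version per the labels). Strand and counting mode are not given in the sources used here. Of 23368 entries, 13 that carry a date in place of a symbol were left out (0.0458% to 0.0506% of counts). Tests were run in R 4.3.3 with edgeR 4.0.16 after filterByExpr and TMM (quasi-likelihood, single fit of 6 libraries, Benjamini-Hochberg adjustment over 14053 genes). Alternatives used DESeq2 1.42.0, edgeR's exact test, other scalings and filters, fewer libraries or genes. The tests were also run on simulated counts, made without the genes of the near-missing region. That check had a smaller spread than the reported fit (common dispersion 0.0164 without those genes, 0.0807 with them) and does not cover it. Positions and lengths came from GENCODE on GRCh37 for 21477 symbols, 1921 through an older symbol. The authors name an Ensembl annotation, so these lengths may differ from those of the counted gene models.

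The genes and lists were chosen with earlier results of these data known. From each list, the text names up to 3 genes called in the same direction with both siRNAs (lowest FDR) and up to 2 called between the siRNAs (largest difference), and for the 2 FGF genes with the widest range, the 3 nearest profiles. Intervals, at a confidence level of 95% in the text, cover counting error only.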

Additional observations from a re-analysis of the deposited data

Results flagged for a closer look

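For the genes in this section, the direct test of the difference between siTAZ #1 and siTAZ #2 passed the threshold (edgeR quasi-likelihood test, FDR under 0.05, n = 2 libraries per group). They are 22: 2 FGF genes, WWTR1 and 19 of the 26 genes named from the lists, of which 13 had been named for this very difference, so that their number is not a result. The values are log2 differences, positive where the level was higher with siTAZ #1. Among the FGF genes, FGF5 differed by 2.53 and FGFR1 by 0.84. WWTR1, lowered by both siRNAs, differed by -0.70.

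Among the genes named for this difference, it was -3.43 for FGF9, -1.83 for SDC4, 1.70 for FLRT3, 1.03 for EXT1 and 0.51 for HS6ST1. It was 2.20 for NRAS, -1.55 for MAPK3, 2.27 for SPRY1 and 1.09 for DUSP4, the last with a rise with both siRNAs. It was 1.23 for FOSL1, 1.07 for MYC, 1.51 for GLI3 and -1.45 for PTCH1. FGF9 rests on few counts, under 2 CPM in every library, and passed the filter on low counts through siTAZ #2, where it was highest. It was not called when either siTAZ #2 library was left out. Genes named for moving the same way with both siRNAs differed in size, by -0.44 for FGFRL1, 0.50 for SDC3, 0.40 for SPRY4, 0.76 for DUSP6, 1.01 for ETV1 and -1.09 for WNT5A.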

How the results depend on the processing

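Over 18 alternatives (17 for FGF18 and FGFR3, which a mean count of at least 50 removes), the FGF genes kept direction and call in 379 values, lost a call in 13, gained one in 26 and changed sign in 8. Of the counts of called list genes, 319 stayed within 1.5 times and 59 did not. Of 30 group levels, that of FGFR1 with siNTC alone moved by more than the replicate spread with library totals. RLE, upper-quartile and library-total scaling changed no number of called FGF genes. With siTAZ #1, 2 FGF genes were called, and 1 (FGF5) in edgeR's exact test on 4 libraries and with the replicate block, and 0 to 4 when 1 library was left out. With siTAZ #2, 2 were called, 4 in DESeq2, without the genes from RANGAP1 through Y, with the replicate block and without those genes, and at an FDR of 0.1, 5 in the exact test and in a fit of 4 libraries, 1 (FGF5) with the replicate block, and 0 to 5 when 1 library was left out. Between the siRNAs, 2 were called, 1 (FGF5) in the exact test, 4 without the genes from RANGAP1 on, and 2 to 4 when 1 library was left out. Where 1 library of a group remained, its spread was taken from the other groups. The causes of these shifts were not tested. The common dispersion was 0.0807 with the near-missing region and 0.0164 without it.

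All 8 changes of sign were in values that were not called before. With siTAZ #1, FGF1 was at 0.04 without siTAZ #1 replicate 1 (-0.83 to 0.04 over single libraries left out), FGF2 at -0.07 without siNTC replicate 2 and at -0.04 without siTAZ #1 replicate 2 (-0.07 to 0.21), and FGF7 at -0.02 without siTAZ #1 replicate 2 (-0.02 to 0.69). With siTAZ #2, FGFR3 was at -0.03 without siNTC replicate 1 and at -0.19 without siTAZ #2 replicate 1 (-0.19 to 1.24). Between the siRNAs, FGF1 was at -0.11 without siTAZ #1 replicate 2 (-0.11 to 0.76) and FGFR3 at -0.08 without siTAZ #2 replicate 2 (-0.08 to 1.03).

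The correlations of deviations between same-numbered libraries were -0.000692, 0.0109 and -0.0769. They take in the near-missing region and cannot show whether same-numbered cultures were handled together. With the replicate block, FGFR1 with siTAZ #1 had an FDR of 0.065 and FGF7 with siTAZ #2 of 0.079, so neither was called. Over all genes, 2889 were called with siTAZ #1, 1061 in the exact test, 1691 with the block and 556 to 5100 when 1 library was left out. With siTAZ #2, 4004 were called, 6424 in the exact test, 6097 in a fit of 4 libraries and 1328 to 6042 when 1 library was left out. Between the siRNAs, 4020 were called, 1498 in the exact test and 1797 to 5659 when 1 library was left out. FGF10 and FGFR2 had 4 to 14 and 2 to 14 counts a library, too few to pass the filter on low counts.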

Other observations

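The genes in this paragraph were chosen after their values were seen, from the lists described above. With siTAZ #2, GRB2, the adaptor that links receptors to RAS, fell from 169 and 153 CPM to 69.3 and 60.6 CPM (edgeR quasi-likelihood test, log2 fold change -1.31, FDR 0.00094), and with siTAZ #1 it was at 180 and 178 CPM (0.15, FDR 0.34). SDC1, a syndecan, had the group order of FGF5: it was at 188 and 194 CPM with siNTC, rose to 321 and 315 CPM with siTAZ #1 (0.74, FDR 0.0027) and fell to 122 and 117 CPM with siTAZ #2 (-0.68, FDR 0.0023). TBX4 and TBX5, transcription factors of the lung mesenchyme that act upstream of FGF10, fell with siTAZ #2 (-0.97 and -0.96, FDR 0.018 and 0.0047) and were not called with siTAZ #1 (-0.35 and -0.32, FDR 0.27 and 0.14).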
